A study of Mus musculus with 5 samples.

Results

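The 10 immediate early genes (Fos, Fosb, Jun, Junb, Egr1, Egr2, Nr4a1, Npas4, Ier2 and Dusp1) were followed in mouse brain RNA that bound in vitro to the protein MA-Brent-1. The members were chosen by gene symbol: every probe set whose single symbol in the array's annotation is one of these names was taken, which gave 12 of the 45037 probe sets that are not controls, and 10 of the 18193 genes named by such a symbol. Jun and Egr2 had 2 probe sets each and the other 8 genes had 1. MA-Brent-1 is a member of the REF/Aly family of mRNA export adaptors, and some sample titles name the protein REFP2. RNA was eluted from the protein after deimination, the conversion of arginine to citrulline (deiminated, 2 arrays), from the protein without it (non-deiminated, 2 arrays), or taken before any binding step (input, 1 array). All 5 RNAs came from brain, and the labels give no genotype, strain, age or tissue dissection. One title marks its non-deiminated sample as a biological repeat, and nothing says how the other replicates arose, so a p-value here reflects no more than the spread among these arrays, which may be technical. The input group has a single array, whose spread was taken to equal that of the bound arrays.

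Immediate early genes are transcribed within minutes of a stimulus without new protein synthesis, because the factors that drive them, such as CREB and SRF with its partners, are already present and are switched on by kinases. In neurons synaptic activity and calcium entry are the classic triggers, and Fos and Egr1 are used as markers of recently active cells. Many of the transcripts carry AU-rich elements that cause rapid decay, so their levels in tissue also depend on handling. Fos, Fosb, Jun and Junb are subunits of the dimeric AP-1 transcription factors. Egr1 and Egr2 are zinc finger factors, Nr4a1 is an orphan nuclear receptor and Npas4 is a neuronal bHLH-PAS factor. Ier2 is a small nuclear protein, and Dusp1 is a phosphatase that switches off MAP kinases.

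The deposited values are MAS5 signal intensities on a linear scale, and every array had the same trimmed mean of 150 (2% of probe sets removed from either end). Median signals were 29.8 to 41.4 for bound RNA and 102 for input. Hybridisation controls, foreign transcripts added in fixed amounts, averaged 10.08 to 13.04 log2 with bound RNA and 17.04 log2 with input. The input array also stood apart in its pattern, with Pearson's r across probe sets of 0.321 to 0.390 with the bound arrays, against 0.897 to 0.971 among these. For 5643 genes with several probe sets, the r between a pair of probe sets of one gene was 0.0384 on the input array and 0.243 to 0.261 on the bound arrays. The 6 neuronal markers checked had a median percentile of 98.0 to 98.2 on the bound arrays and 90.5 on the input array. Other brain lists were also lower on the input array: oligodendrocyte (62.0 against 92.3 to 95.2), astrocyte (97.3 against 98.5 to 99.2), microglia (65.9 against 72.2 to 78.9) and endothelium (61.9 against 76.4 to 85.8). Blood markers had 55.7 against 54.7 to 59.2. The 5 skeletal muscle markers had medians of 19.3 to 22.7 on the 5 arrays, but their summed signal was 510 on the input array and 61.7 to 86.6 on the bound arrays, with creatine kinase (Ckm) at 377 against 4.04 to 22.7. Ckm thus made up most of the input sum, while Acta1 read 17.9 on the input array and 8.27 to 61.0 on the bound arrays. The sums were not corrected for the higher median signal of the input array. The 4 liver markers lay at 23.1 to 36.7 on the bound arrays but at 74.8 on the input array, with albumin (Alb) at 284 there and 16.5 to 32.5 on the bound arrays. The ratio of 3' to 5' signal, a measure of RNA integrity and labelling, stood for beta-actin at 29.8 to 55.6 with bound RNA and 234 with input, and for Gapdh at 17.4 to 31.9 and 2.71. No member value was corrected for these differences, and their part in the comparisons with input was not tested.

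The stretches below show, for 4 members, letters that match elements bound by CREB and SRF, the factors named above, read from RefSeq promoter windows of build GRCm38.p6 that run from 250 bases before to 50 bases after a transcript start. Each stretch has 80 bases, written in the direction of transcription. Capitals mark the CRE, bound by CREB (TGACGTCA), its core (TGACG, or CGTCA on the other strand, which also lies within the full CRE) and the CArG box bound by SRF. They lie at chr12:85473786-85473865 on the + strand (Fos), chr17:26508572-26508651 on the - strand (Dusp1), chr19:4990099-4990178 on the - strand (Npas4) and chr10:67537762-67537841 on the + strand (Egr2).
Fos: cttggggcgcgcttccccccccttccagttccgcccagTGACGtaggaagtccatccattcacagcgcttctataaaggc
Dusp1: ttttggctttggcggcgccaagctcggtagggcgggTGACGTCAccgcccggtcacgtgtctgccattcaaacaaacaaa
Npas4: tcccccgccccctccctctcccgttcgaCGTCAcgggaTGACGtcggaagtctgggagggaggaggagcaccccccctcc
Egr2: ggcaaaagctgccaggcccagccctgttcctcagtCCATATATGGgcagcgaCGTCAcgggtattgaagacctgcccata
Of the 8 members with a window, 7 held the CRE core, against 20.8% of all 32851 windows, and the exception was Jun. The full CRE stood in 1 member, Dusp1 (1.79% of all windows), and the CArG box in 1 member, Egr2 (1.63%). Egr1 and Ier2 had no window, and sites further than 250 bases before a start were not searched, so these counts do not show which genes lack an element. Egr2 had several windows and counts where any of them held the motif. These matches describe the letters of the DNA, and the arrays measured RNA bound to a protein, so no value below bears on them.

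The AP-1 subunits are given first, as MAS5 signals. Signals of different probe sets depend on their probes, so levels are compared between arrays and not between genes. Fos (1423100_at), the partner that AP-1 gains on stimulation, read 302 and 178 with deiminated protein, 340 and 79.5 with non-deiminated protein and 250 in the input. One array of each bound group lay above input and one below, so the groups overlapped. Fosb (1422134_at), its close relative, read 23.7 and 26.4 with deiminated protein, 23.9 and 1.89 with non-deiminated protein and 16.6 in the input. The other bound arrays were nearly alike and non-deiminated replicate 2 was far below them, at the 5.32 percentile of its array against 41.8 to 45.0 on the others.

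The Jun genes encode the partners of the Fos proteins. The brighter Jun probe set (1448694_at) read 462 and 407 with deiminated protein, 409 and 364 with non-deiminated protein and 207 in the input. All 4 bound arrays lay above the input, while the bound groups overlapped. The other Jun probe set (1417409_at) read 74.7 and 55.0, 77.1 and 25.8, and 61.9 in the same order, so the bound arrays lay on both sides of the input. The 2 Jun probe sets thus disagreed on the comparison with input. Junb (1415899_at) read 45.6 and 36.7 with deiminated protein, 47.5 and 18.0 with non-deiminated protein and 12.4 in the input. The bound arrays were all higher, but the input value is close to the pseudocount of 4.18 that was added before taking log2.

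Among the zinc finger genes, Egr1 (1417065_at) read 3325 and 4031 with deiminated protein, 2534 and 3541 with non-deiminated protein and 2626 in the input. These signals lay between the 98.1 and 99.0 percentiles of the 5 arrays, and the bound groups overlapped. Egr2, which also directs myelination by Schwann cells, was read by 2 probe sets that moved in opposite directions against input. One (1427683_at) read 74.3 and 74.0 with deiminated protein, 75.8 and 165 with non-deiminated protein and 13.4 in the input. The other (1427682_a_at) read 123 and 73.8, 147 and 57.0, and 150 in the same order, with every bound array below the input. The probe sets therefore gave no single direction for Egr2.

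Nr4a1 (1416505_at) read 205 and 212 with deiminated protein, 262 and 294 with non-deiminated protein and 207 in the input. The replicates of each bound group were close, and both non-deiminated arrays exceeded both deiminated ones. Npas4 (1459372_at), which is largely restricted to neurons, read 41.2 and 26.3 with deiminated protein, 10.7 and 13.2 with non-deiminated protein and 20.2 in the input. Both deiminated arrays were above the input and both non-deiminated arrays below it, all near the low end of the scale. Ier2 (1416442_at) read 77.3 and 71.3, 63.9 and 72.5, and 229 in the same order, so the 4 bound arrays were close together and below the input. Dusp1 (1448830_at) read 257 and 195, 199 and 199, and 161, and all 4 bound arrays were above the input.

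**Figure D1:**
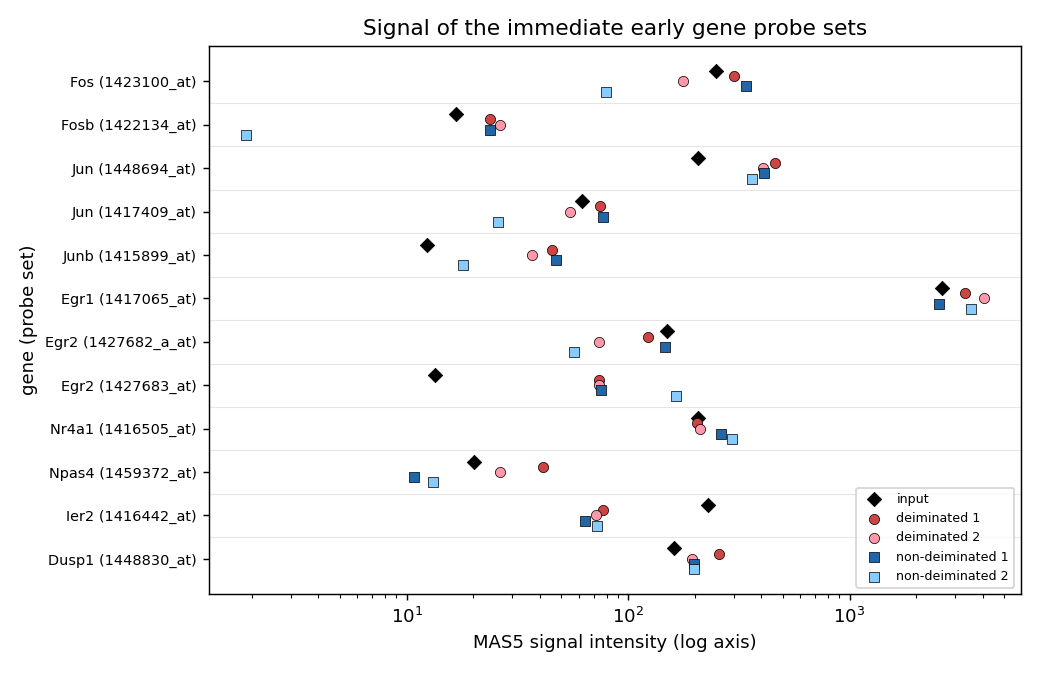
MAS5 signal (log axis) of the 12 probe sets of the 10 immediate early genes, with 1 point for each of the 5 arrays. Egr1 lies between 2534 and 4031 on all arrays, Ier2 is higher in the input (229) than on the bound arrays, and non-deiminated replicate 2 is the lowest bound array for Fos, Fosb, Junb, both Jun probe sets and 1 Egr2 probe set.

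Setting the deiminated against the non-deiminated arrays addresses how deimination bears on the share of each transcript in the bound RNA. Every array was scaled to the same trimmed mean, so a change in the total amount of RNA bound would not show. No immediate early gene probe set passed the test, and none of all 27022 tested probe sets did (0% called). The test took probe sets at or above the 40th percentile of mean log2 signal, which 10 of the 12 members were; Fosb and Npas4 lay under that filter. Differences are of log2(signal + 4.18), with the standard error and the Benjamini-Hochberg adjusted p from limma, and the threshold was an adjusted p of 0.05. Fos had a difference of 0.47 ± 0.55 (SE, n = 2 and 2; limma adjusted p = 0.9999), and its 95% interval ran from -0.71 to 1.66. The other 9 tested members had the same adjusted p, and 0 of the 10 had an unadjusted p under 0.05 in limma, against 356 of all 27022 probe sets.

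The tested members had a median difference of 0.17, beside -0.0095 over all tested probe sets, and 8 of the 10 were positive. The largest in size was that of the Egr2 probe set 1427683_at, at -0.57 (95% interval -1.76 to 0.62). Nr4a1 had -0.40 (-1.12 to 0.32). These were the 2 members whose groups did not overlap with the deiminated arrays lower, which held for 13.1% of all tested probe sets, and 0 tested members were wholly higher, against 11.0%. The interval of the brighter Jun probe set ran from -0.51 to 0.84 and that of Dusp1 from -0.59 to 0.92, within a 2-fold change either way. These 2 were the only such intervals among the 10, whereas 9 of the 10 lay within a 4-fold change, the exception being Junb (-1.22 to 2.05). Over all tested probe sets those shares were 24.2% and 83.9%. Smaller effects of deimination on these transcripts were therefore not detectable with 2 arrays a group. Without the filter, Npas4 had 1.21 (-0.57 to 2.99; limma adjusted p = 0.9999) and Fosb 1.16 (-0.80 to 3.12).

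**Figure D2:**
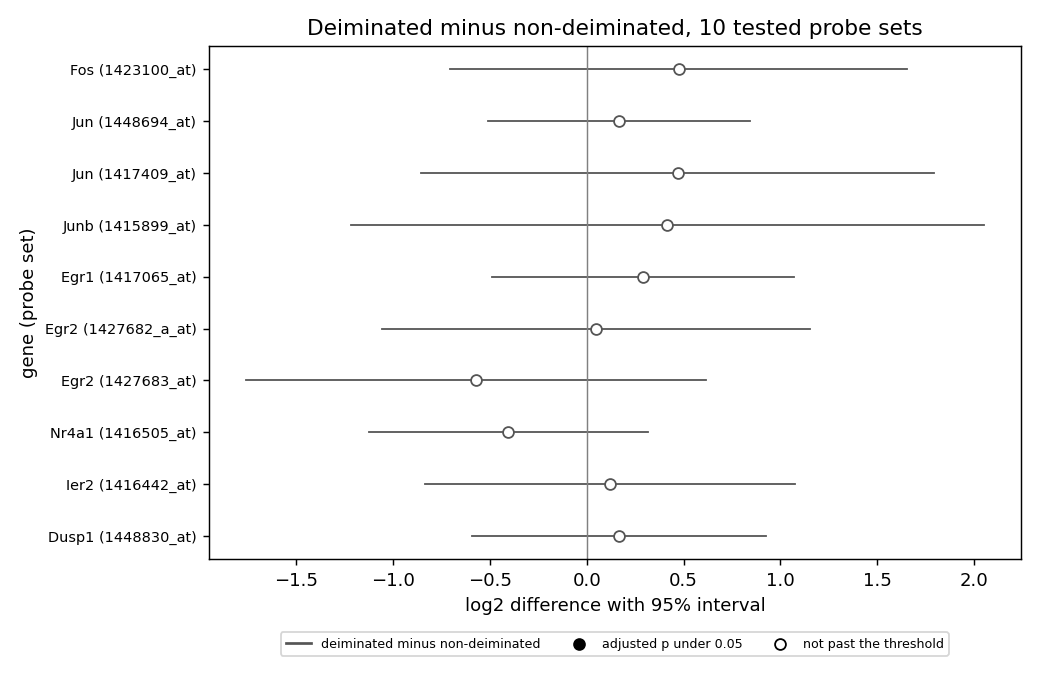
Log2 difference, deiminated minus non-deiminated, for the 10 tested immediate early gene probe sets, with 95% intervals from limma. Every interval includes 0, and the interval for Junb is the widest, from -1.22 to 2.05.

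The positive median rested on 1 array. Non-deiminated replicate 2 was the lowest of the 4 bound arrays for 6 of the 12 members (Fos, Fosb, both Jun probe sets, Junb and Egr2 1427682_a_at), and for 5 of the 10 tested members, beside 28.2% of all tested probe sets. Without it the median difference was -0.11 and 4 of the 10 members were positive. Fos then had -0.55, the Jun probe set 1417409_at -0.25, Junb -0.19 and Egr2 1427682_a_at -0.60. Each bound group held an array with higher and an array with lower hybridisation controls, and non-deiminated replicate 2 had the highest level of the bound arrays (13.04 log2). Taking the array with the higher controls minus the other, Fos differed by -0.75 log2 with deiminated and -2.04 log2 with non-deiminated protein. Over all tested probe sets, 8.19% and 1.73% had a value that low or lower. Junb had -0.28 and -1.22, Egr2 1427682_a_at had -0.70 and -1.31, and Jun 1417409_at had -0.42 and -1.44. Fosb had 0.14 and -2.21. Egr1 went the other way, with 0.28 and 0.48, and Egr2 1427683_at had -0.0049 and 1.08. Ier2 had -0.11 and 0.17, Npas4 -0.57 and 0.22, and Dusp1 -0.39 and 0.0032. In all, 8 of the 10 tested members were negative with deiminated protein, beside 43.4% of all tested probe sets, and 5 of 10 with non-deiminated protein, beside 43.99%. The median of all tested probe sets was 0.10 and 0.12. The part of the control level in these differences was not tested.

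The comparisons with input ask which transcripts had a larger or smaller share in the bound RNA than in the starting RNA. They share the 1 input array, so their likeness is no separate support. Against deiminated protein, 2 members rose and 1 fell. The Egr2 probe set 1427683_at rose by 2.16 ± 0.67 (SE, n = 2 and 1; limma adjusted p = 0.0183) and the Jun probe set 1448694_at by 1.05 ± 0.38 (limma adjusted p = 0.0356). Ier2 fell by 1.57 ± 0.54 (limma adjusted p = 0.0285). So 3 of 10 tested members were called, 2 higher and 1 lower, while 51.5% of all tested probe sets were called (24.9% higher and 26.6% lower): the share of members called was not above the background. Without regard to the test, 5 members had both deiminated arrays above the input and 2 had both below it, beside 42.9% and 49.4% of all tested probe sets. The median of the 10 was 0.26, beside -0.21 over all tested probe sets, and 7 were positive. That background depended on signal: over the probe sets past the 60th percentile of mean log2 signal, as 8 members were, the median was 0.29. The members' median is therefore not read as a shift.

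With non-deiminated protein, Egr2 1427683_at rose by 2.73 ± 0.67 (SE, n = 2 and 1; limma adjusted p = 0.00618) and Ier2 fell by 1.69 ± 0.54 (limma adjusted p = 0.0215). Jun 1448694_at had 0.88 ± 0.38 and did not pass (limma adjusted p = 0.0692). That makes 2 of 10 called, 1 in each direction, beside 50.5% of all tested probe sets (24.7% higher and 25.7% lower), with a median of 0.25 beside -0.19. Past the 60th percentile of signal the median of all probe sets was 0.29 here too. Again 5 members lay wholly above the input and 2 wholly below, beside 41.7% and 47.9%. The second Egr2 probe set, 1427682_a_at, had -0.63 and -0.68 with deiminated and non-deiminated protein, neither past the threshold (limma adjusted p = 0.407 and 0.374). The second Jun probe set had 0.05 and -0.42. The calls for Egr2 and Jun thus hold for single probe sets and not for the genes. Egr2 1427683_at had an input value of 4.14 log2, under the filter of 4.89, so like Junb (4.05) it was tested through its bound arrays, where it was high.

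The remaining tested members did not pass against input in either group. Junb had 1.45 (95% interval -0.55 to 3.45) with deiminated and 1.03 (-0.97 to 3.03) with non-deiminated protein. Egr1 had 0.48 (-0.48 to 1.43) and 0.19 (-0.77 to 1.14). Dusp1 had 0.47 (-0.46 to 1.40) and 0.30 (-0.63 to 1.23), Nr4a1 had 0.01 (-0.87 to 0.89) and 0.42 (-0.47 to 1.30), and Fos had -0.11 (-1.56 to 1.34) and -0.58 (-2.03 to 0.86). The intervals spanned a median of 2.53 log2 units, so only large differences from input could have passed. Without the filter, Fosb had 0.49 and -0.67, and Npas4 0.61 and -0.60, none of them called.

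**Figure D3:**
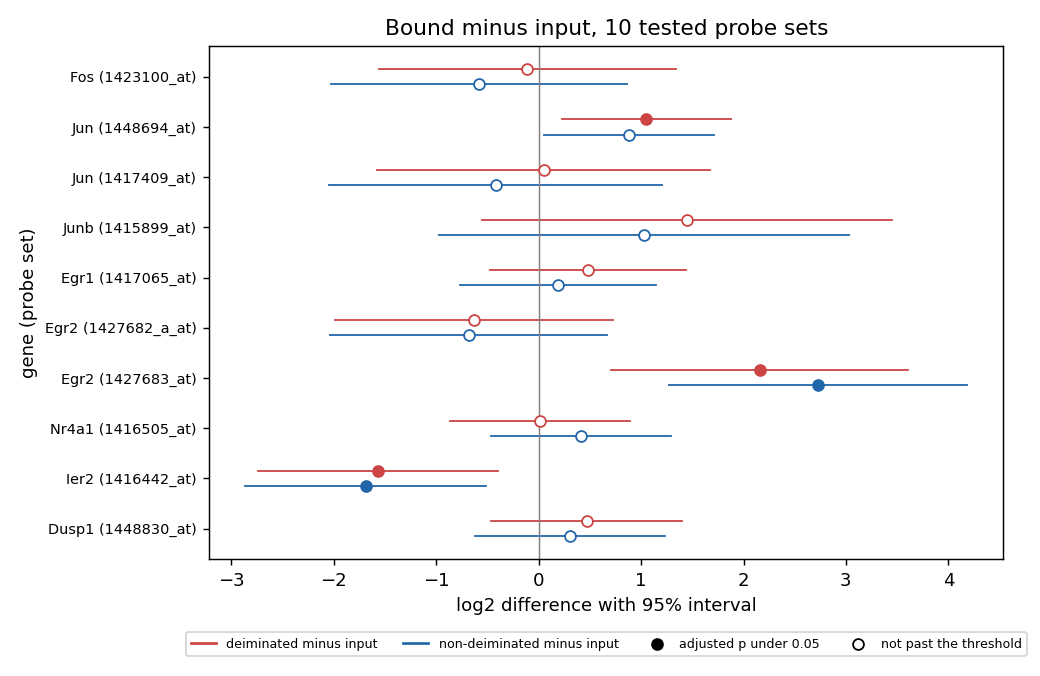
Log2 difference from the 1 input array for the 10 tested immediate early gene probe sets, with 95% intervals from limma; red is deiminated and blue non-deiminated protein, and filled points passed an adjusted p of 0.05. Egr2 1427683_at (2.16 and 2.73) and Ier2 (-1.57 and -1.69) passed in both comparisons and Jun 1448694_at (1.05 and 0.88) with deiminated protein.

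These calls depend on how the input array is scaled. Over all tested probe sets the median difference of deiminated from input was -0.21 as deposited, 0.51 after quantile normalisation, -0.24 after cyclic loess, 1.315 when arrays were scaled to one median and 4.31 when scaled to the hybridisation controls. Of the called probe sets 48.4% were higher as deposited, against 65.4%, 56.9% and 91.7% under the first 3 of these scalings. Egr2 1427683_at stayed higher than input under all 4, with 2.92 to 5.06 for deiminated protein. These values include the shift of all probe sets under each scaling, which was 4.31 under the hybridisation controls. Egr2 1427683_at was called under 3, but not under the hybridisation controls (limma adjusted p = 0.19), where 0 of all 27022 probe sets were called (7110 at an unadjusted p under 0.05 in limma). It was also not called when either deiminated array was left out (limma adjusted p = 0.0741 and 0.0611). Ier2 was not called under any of the 4 (limma adjusted p = 0.0771 to 0.985 for deiminated protein), and its difference was 3.40 under the hybridisation controls, less than the shift of all probe sets. Jun 1448694_at had 0.08 after cyclic loess, and its adjusted p over all alternatives ran from 0.00197 to 0.868 in limma. Egr1 had -0.49 after quantile normalisation, -1.08 after cyclic loess (called lower; limma adjusted p = 0.026) and 2.08 after scaling to one median (called higher; limma adjusted p = 0.00199), so no direction against input can be given for it.

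Ranks within each array do not depend on that scaling. By rank among the probe sets of its array, Egr2 1427683_at stood at the 64.4 to 78.4 percentiles on the bound arrays and at 14.2 on the input array. Junb stood at 31.1 to 58.7 against 12.9. The Jun probe set 1448694_at stood at 88.2 to 89.7 against 72.5. Dusp1, which passed no test on the deposited scale, stood at 80.6 to 84.3 against 63.4, and Nr4a1 at 81.7 to 86.0 against 72.5. Ier2 stood lower when bound, at 63.2 to 67.8 against 76.6. In all, 6 of the 12 members ranked higher than input on all 4 bound arrays and 2 lower (Ier2 and, by less than 1 percentile, Egr1). Of the 10 tested members, 5 ranked higher, where 50.4% of all tested probe sets did so, and 2 lower, where 34.5% did.

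**Figure D4:**
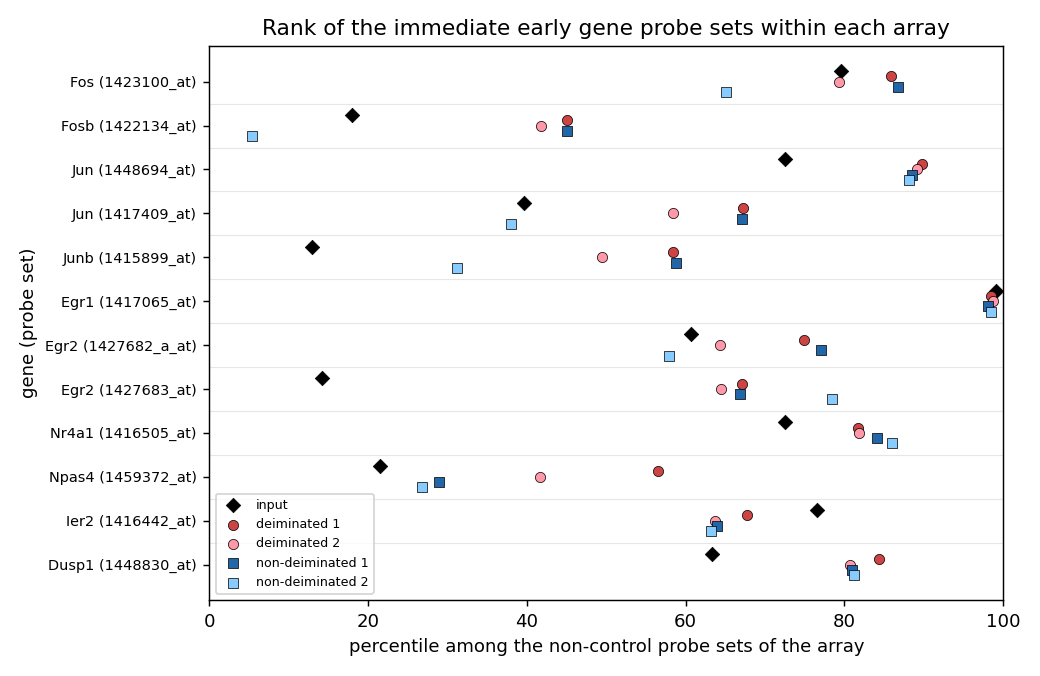
Percentile of each of the 12 immediate early gene probe sets among the 45037 non-control probe sets of the same array, with 1 point for each of the 5 arrays. Egr2 1427683_at moves from 14.2 in the input to at least 64.4 on the bound arrays, and Egr1 stays at 98.1 or above on all of them.

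A further 4 lists of related genes, written from textbook knowledge, were read beside the members, with 1 probe set per gene. That was the gene's brightest, whereas the shares over all tested probe sets include dimmer ones. Past the 60th percentile of signal, 64.6% of called probe sets were higher with deiminated and 65.2% with non-deiminated protein. Deiminated and non-deiminated protein differed for 0 genes of any list, as for all probe sets. The relatives of the members (other Fos, Jun, Egr and Nr4a genes, further phosphatases and Ier genes, and partners) had 18 tested genes, of which 6 were called higher and 4 lower than input with deiminated protein (55.6% called, beside 51.5% of all tested probe sets), and 7 and 5 with non-deiminated protein (66.7% beside 50.5%). Their medians were -0.08 and -0.31. The calls depended on the scaling. After cyclic loess 5 were higher and 5 lower in both comparisons (55.6% called, beside 40.0% and 38.9% of all tested probe sets). After scaling to one median 8 were higher and 1 lower in both (50% called, beside 47.9% and 46%). Fosl2, another Fos subunit, had 4.70 and 4.29 with deiminated and non-deiminated protein, from an input signal of 5.89 and bound signals of 192 to 289. The neuronal factor Npas3 had 3.72 and 3.77, Nr4a3 had 3.06 and 2.71, and Jdp2, an AP-1 partner that represses, had 2.97 and 3.23. In the other direction, Jund had -3.42 and -3.23, with a signal of 41483 in the input and 3305 to 5636 on the bound arrays. Egr4 had -2.47 and -3.02, the Egr corepressor Nab2 -1.78 and -2.64 and Npas2 -1.29 and -1.27. The input signals of Fosl2 (5.89) and Npas3 (12.5) were close to the pseudocount and under the filter, so both were tested through their bound arrays and the sizes of their differences rest on that floor. The same holds for Dusp6, also called higher, with an input signal of 8.46. Npas1, called lower for non-deiminated protein only, averaged 5.11 and 4.31 log2 on the deiminated and non-deiminated arrays and 7.38 log2 in the input. It passed the filter of 4.89 only through the input array, where it was high.

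Other activity-regulated genes numbered 38 tested, with 14 called higher and 9 lower for deiminated protein (60.5% called, beside 51.5%) and 15 and 11 for non-deiminated protein (68.4% beside 50.5%), with medians of -0.05 and 0.35. After cyclic loess the calls were 9 higher and 10 lower, and 9 and 9 (50% and 47.4% called, beside 40.0% and 38.9%). After scaling to one median they were 18 and 1, and 20 and 1 (50% and 55.3% called, beside 47.9% and 46%). The input signals of Bhlhe40 (8.64) and Nptx2 (9.05) were again near the pseudocount. Both were called higher from input values under the filter, as were Tiparp, Gadd45g and Klf10, and Socs3 for non-deiminated protein only. These genes were therefore tested through their bound arrays, where they were high. Sik1, called lower in both comparisons, averaged 5.22 and 4.11 log2 on the deiminated and non-deiminated arrays and 7.92 log2 in the input. It passed the filter of 4.89 only through the input array, where it was high. Bhlhe40, a circadian repressor, had 4.32 and 4.23, and the receptor inhibitor Errfi1 4.20 and 4.18. The synaptic pentraxin Nptx2 had 3.30 and 3.46. Klf2 had -3.24 and -2.76, and the prohormone protease Pcsk1 -2.97 and -2.92. Upstream regulators (SRF and its cofactors, CREB with relatives and coactivators, MEF2 factors, and kinases) had 22 tested genes. Of these, 9 were called higher and 1 lower in both comparisons (45.5% called, with medians of 0.35 and 0.49). Over all tested probe sets the calls were 24.9% higher and 26.6% lower for deiminated protein. Past the 60th percentile of signal, however, 64.6% of calls were higher. Elk3 and Crtc3, among the 9, had input values under the filter and were tested through their bound arrays. The direction of the list also depended on the scaling. After cyclic loess 6 were higher and 6 lower for deiminated protein (54.5% called, median -0.65). For non-deiminated protein 7 were higher and 7 lower (63.6% called, median -0.49). Of all tested probe sets, that scaling called 40.0% and 38.9%, and 56.9% and 57.2% of those calls were higher. The medians of all tested probe sets were then -0.24 and -0.26. The SRF cofactor Mrtfb had 3.59 and 3.01, the calcium-dependent kinase Camk4 3.22 and 3.13 and Mef2c 2.86 and 2.89, whereas the CREB family member Crem had -1.77 and -1.91. Of 14 factors that bind AU-rich or similar elements, 5 were called higher and 1 lower for deiminated protein, and 5 and 2 for non-deiminated protein (42.9% and 50% called; medians -0.02 and 0.08). After cyclic loess these became 2 higher and 5 lower in both comparisons (50% called, beside 40.0% and 38.9% of all tested probe sets). Pum2 had 2.79 and 2.87 and the neuronal Elavl2 2.44 and 2.36, while Zfp36, itself induced early and a promoter of mRNA decay, had -2.98 and -2.91. Between deiminated and non-deiminated protein, the genes with the largest moderated t of each list were Nab2 (0.87), Gadd45g (1.18), Mrtfb (0.57) and Elavl4 (-0.33), each with limma adjusted p = 0.9999. All the differences from input in these lists rest on the 1 input array.

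**Figure D5:**
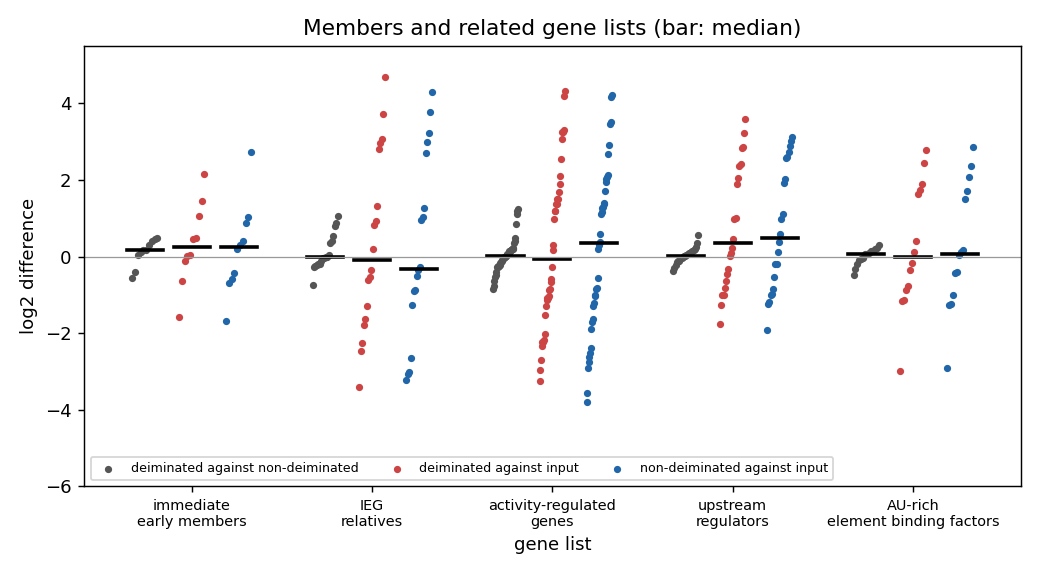
Log2 differences of the 10 tested immediate early gene probe sets and of 4 related gene lists, with 1 point per probe set (members) or gene (lists) and a bar at the median; grey is deiminated minus non-deiminated, red deiminated minus input and blue non-deiminated minus input. The grey points of the 4 lists lie between -0.85 and 1.25, and the differences from input spread to both sides, from -3.80 for Sik1 to 4.70 for Fosl2.

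Finally, the transcripts most like 2 of the members over the 5 arrays were sought by the Euclidean distance between log2 signals, each centred on its own mean. For Egr1, the member with the highest mean signal, the nearest were Ccnd2 (distance 0.06), Msl2 (0.07), Kcna6 (0.10), Arfgap2 (0.12) and Asrgl1 (0.12). For Egr2 1427683_at, the member with the largest difference between bound and input arrays, they were Lancl3 (0.10), Vps13a (0.17), Ing1 (0.20), Cpt1a (0.23) and Orc3 (0.26). With only 5 arrays, these distances are a description.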

How the data were processed

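RNA from mouse brain was hybridised to 5 Affymetrix arrays. The deposited table gives a signal intensity for each of 45101 probe sets, and the submitters' processing notes name MAS5 without a version. The values show that the authors scaled each array to a common trimmed mean; background and detection settings are not given in the sources used here. Groups came from the sample descriptions, and replicate numbers follow accession order and pair nothing.

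From these values, log2 was taken after adding a pseudocount of 4.18, set at the table's median (41.8) over 10. The 64 control probe sets were set aside, and 27022 probe sets past the 40th percentile of mean log2 signal were fitted in limma 3.58.1 (R 4.3.3; lmFit, eBayes with a trend) with 3 group means, 2 residual and on average 10.9 prior degrees of freedom. Adjusted p-values are Benjamini-Hochberg over all of them. The model was tested on simulated data. Where 1 probe set stands for a gene, it is the one with the highest mean signal. Every member is named. From each related list, up to 4 called genes per direction with the largest differences of deiminated from input could be named. The gene with the largest moderated t between deiminated and non-deiminated protein was named too. Alternatives changed the pseudocount (1.05 and 16.7), the filter, scaling, variance model, array weights, blocks and arrays used. The members, lists and rules were chosen with earlier results of these data known. The annotation gave 34945 probe sets 1 symbol, 932 several and 9160 none. The Entrez identifiers of all 10 member genes matched RefSeq. The number of arrays limits the precision.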

Additional observations from a re-analysis of the deposited data

Results flagged for a closer look

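Npas4 (1459372_at) moved in opposite directions from the input with deiminated and non-deiminated protein on every array of the deposited scale. Its mean log2 difference was 0.61 for deiminated and -0.60 for non-deiminated protein, a gap of 1.21 between them. The gap was tested by limma without the signal filter and did not pass (adjusted p = 0.9999; 95% interval -0.57 to 2.99). Its signals of 10.7 to 41.2 were low. By rank the opposite directions did not hold: Npas4 stood at the 21.5 percentile of the input array and higher on all 4 bound arrays, at 41.7 and 56.5 with deiminated and 26.8 and 28.9 with non-deiminated protein. With 2 arrays a group, no group was large enough to look for single outlying arrays.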

How the results depend on the processing

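No member was called between deiminated and non-deiminated protein under any alternative run, and its median moved by less than the spread between arrays, although without non-deiminated replicate 2 it was -0.11. Leaving out single arrays turned the sign of Fos (-0.55 to 1.495), Jun 1417409_at (-0.25 to 1.19), Junb (-0.19 to 1.03), Egr2 1427682_a_at (-0.60 to 0.70) and Dusp1 (-0.032 to 0.36), and scaling to the hybridisation controls that of Egr2 1427682_a_at (-0.0020).

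Against input the scaling decided most values. For deiminated protein, 3 members were called as deposited, 6 after scaling to one median, 0 under the hybridisation controls, 1 with the protein name as a block and 0 to 3 when single arrays were left out (0 without deiminated replicate 1 or 2). Of all tested probe sets, 51.5% were called as deposited, 47.9% after scaling to one median, 0% under the hybridisation controls and 46.7% with the block. The median of the members went from 0.26 to 1.09 (quantile), -0.20 (cyclic loess), 1.80 (one median) and 4.945 (hybridisation controls). For non-deiminated protein, 2 calls became 4 (quantile), 5 (one median) and 0 (hybridisation controls). Of all tested probe sets, 50.5% were called as deposited, and 55.6%, 46% and 0% under these scalings. The members' median of 0.25 became -0.12 with no filter, 0.96 (quantile), -0.18 (cyclic loess), 1.74 (one median) and 4.84 (hybridisation controls).

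Signs turned for deiminated against input after quantile normalisation for Fos (0.32), Egr1 (-0.49) and Egr2 1427682_a_at (0.62), after cyclic loess for Egr1 (-1.08) and Nr4a1 (-0.59), after scaling to one median for Fos (1.46) and Egr2 1427682_a_at (0.91), and under the hybridisation controls for Fos (4.92), Egr2 1427682_a_at (4.17) and Ier2 (3.40). For non-deiminated against input they turned after quantile normalisation for Jun 1417409_at (0.77), Egr1 (-0.76) and Egr2 1427682_a_at (0.50), and after cyclic loess for Jun 1448694_at (-0.077), Jun 1417409_at (0.46), Egr1 (-1.31), Nr4a1 (-0.19) and Dusp1 (-0.16). Scaling to one median turned Fos (0.90), Jun 1417409_at (0.97) and Egr2 1427682_a_at (0.78), and the hybridisation controls Fos (4.49), Jun 1417409_at (3.89), Egr2 1427682_a_at (4.18) and Ier2 (3.32). Leaving out arrays did so for Fos (-0.48 to 0.26 with deiminated, -1.60 to 0.44 with non-deiminated protein), Jun 1417409_at (-0.16 to 0.26 and -1.14 to 0.30), Nr4a1 with deiminated protein (-0.012 to 0.035) and Egr1 with non-deiminated protein (-0.052 to 0.43). Without non-deiminated replicate 1, Fos had -1.60 against input and was called (limma adjusted p = 0.0121). Scaling to the hybridisation controls moved the median of all tested probe sets to 4.31 and 4.38, and the signs turned there with that shift. Relative to it Egr2 1427682_a_at and Ier2 stayed below in both comparisons and Jun 1417409_at in the second. Fos lay above it in both, although with non-deiminated protein Fos was below the median of all as deposited (-0.58 beside -0.19). Scaling to one median moved that median to 1.315 and 1.245, and the values that turned for non-deiminated protein lay below it. Beyond the scalings' own construction, the cause was not tested. The block for the level of the hybridisation controls, chosen after seeing the data, changed 1 call: Jun 1448694_at then passed for non-deiminated protein (limma adjusted p = 0.0359). No paired analysis was possible because the labels give no replicate numbers shared between the groups; the blocks above use the protein's name in the titles or the control level instead.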
